A study of Mus musculus with 2 samples.

Results

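Proximal miRNA genes of the imprinted Dlk1-Dio3 locus, those lying around the retrotransposon-derived gene Rtl1 on mouse chromosome 12, were examined in embryonic facial prominence. The 10 genes, out of 1973 counted miRNA genes, were taken by symbol (Mir673, Mir493, Mir337, Mir540, Mir665, Mir431, Mir433, Mir127, Mir434 and Mir432), on the plus strand, through their gene identifiers. The facial prominence is the embryonic tissue that gives rise to the face and jaws, and here it came from strain B6NCrl embryos at 15.5 days. Small RNA was sequenced in 1 group of 2 biological replicates, with males and females mixed: replicate 1 was a pool of 78 embryos and replicate 2 a pool of 62, both labelled healthy. No treatment or genotype is given beyond the strain. The samples are whole tissue, in which fewer cells of a type and less RNA per cell cannot be told apart.

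The Dlk1-Dio3 locus is expressed by parent of origin. The protein-coding genes Dlk1, Rtl1 and Dio3 are transcribed from the paternal copy, and the noncoding genes Meg3, Rian and Mirg, together with the miRNAs on their strand, from the maternal copy. Several of the proximal miRNAs are transcribed opposite Rtl1, a gene known for its part in the placenta and in fetal muscle, and being fully complementary to its mRNA they can direct its cleavage. These data come from an inbred strain and carry no allele, and Rtl1 mRNA was not measured, so neither imprinting nor regulation of Rtl1 was tested.

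The genes span 23.0 kb of chromosome 12 and fall into a group opposite the Rtl1 coding exon and a group between Meg3 and Rtl1. In the GENCODE M21 annotation of mm10, Meg3 lies on the plus strand at 109541001 to 109571726 and Rtl1 on the minus strand at 109589193 to 109600330, with its coding part at 109590172 to 109595403. Opposite that coding part lie, among the 10 genes, Mir431 (109590447 to 109590537), Mir433 (109591715 to 109591838), Mir127 (109592846 to 109592915), Mir434 (109594506 to 109594599) and Mir432 (109594956 to 109595030). In the interval between Meg3 and Rtl1 are Mir673 (109571990 to 109572080), Mir493 (109580233 to 109580315), Mir337 (109585789 to 109585885), Mir540 (109586080 to 109586146) and Mir665 (109586314 to 109586407). Mir337, Mir540 and Mir665 are close neighbours, 194 and 167 bases apart. RefSeq draws Rtl1 wider, from 109564900 to 109604418, a span that takes in all 10 genes.

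All 10 hairpins were found in RefSeq (GRCm38.p6) with the same span as in GENCODE M21, and they carry 19 annotated mature miRNAs, 2 for every gene except Mir432, which has 1. The mature miRNAs of the genes opposite Rtl1 are shown because they are the ones of these 19 complementary to its GENCODE M21 transcript. Those of Mir337 are added as the most abundant gene of the other group. All are written 5′ to 3′ on the plus strand, with the seed (bases 2 to 8, the part that pairs first with a target) in capitals.
miR-431-5p: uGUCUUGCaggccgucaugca
miR-431-3p: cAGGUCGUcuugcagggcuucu
miR-433-5p: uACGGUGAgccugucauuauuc
miR-433-3p: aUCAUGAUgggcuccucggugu
miR-127-5p: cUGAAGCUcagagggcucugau
miR-127-3p: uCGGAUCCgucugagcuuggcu
miR-434-5p: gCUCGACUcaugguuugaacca
miR-434-3p: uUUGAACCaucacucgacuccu
miR-432: uCUUGGAGuagaucagugggcag
miR-337-5p: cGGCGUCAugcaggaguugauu
miR-337-3p: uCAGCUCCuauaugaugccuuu

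No seed was shared among these genes: the 19 mature miRNAs carry 19 different seeds. Against all 1738 mature mouse miRNAs of the table, a seed was shared only by miR-673-5p with miR-6985-3p and by miR-540-3p with miR-6915-5p. Mir6985 had 4 reads in replicate 1 and 1 in replicate 2, and Mir6915 is not among the counted genes. Mature lengths ran from 19 bases for miR-493-5p to 26 for miR-665-5p. The counts are per gene and do not separate the arms of a hairpin, so no statement about miR-127-3p as against miR-127-5p can be drawn from them.

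The 5 genes opposite Rtl1 were fully complementary to its transcript, as their position requires. The reverse complement of each of their 9 mature miRNAs occurred in the Rtl1 transcript of GENCODE M21 (Rtl1-201), and that of none of the other 10 did. The wider Rtl1 of RefSeq was not searched. All 9 sites lay in the coding sequence of 5235 bases including the stop codon, from bases 376 to 398 for miR-432 at the 5′ end to bases 4925 to 4945 for miR-431-5p near the 3′ end. The sites of Mir127, the most abundant of the genes, are given 5′ to 3′ on the Rtl1 mRNA strand, with the bases opposite the seed in capitals. The first lies at coding bases 2495 to 2516 and the second at 2529 to 2550.
Rtl1 site of miR-127-3p: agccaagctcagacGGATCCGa
Rtl1 site of miR-127-5p: atcagagccctctgAGCTTCAg

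**Figure D1:**
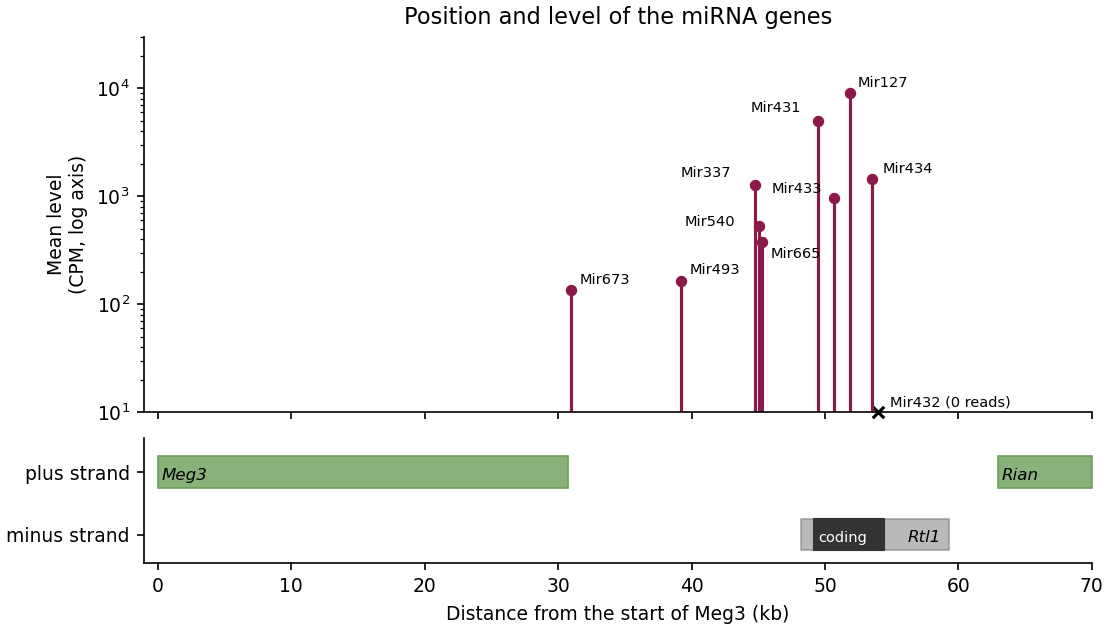
Upper panel: mean level over both libraries in CPM (log axis) of each miRNA gene against its distance from the start of Meg3 in kb, with a cross for a gene with no read. Lower panel: Meg3, Rian (drawn to the edge of the plot) and Rtl1 on their strands, the Rtl1 coding part dark. The highest levels, of Mir127 and Mir431, lie opposite the coding part of Rtl1, and Mir432 in the same stretch had 0 reads.

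Reads assigned to miRNA genes numbered 2978463 in replicate 1 and 6408008 in replicate 2, and another 30.6% and 29.7% of all reads mapped to several places and were given to no gene. None of the 10 hairpins shared a stretch of 20 bases with another annotated hairpin, and none of the 19 mature sequences was found in the transcript of another gene on the same strand. The labelled tissue was checked against miRNAs of tissue types. Summed levels in replicates 1 and 2 were 151799 and 128693 CPM for 7 epithelial genes, 15342 and 14429 CPM for 2 cartilage genes, 8083 and 6098 CPM for 9 striated muscle genes, 24124 and 28452 CPM for the endothelial Mir126a, 684 and 747 CPM for 3 blood genes, and 971 and 895 CPM for 16 neural genes. Of the neural genes, Mir124a-1 and Mir124a-2 were at 0 in both libraries, as were Mir133a-1 and Mir133a-2 of the muscle genes. Both families have near-identical gene copies, for which counts that leave out reads mapping to several places are uncertain.

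Of the 10 genes, 9 passed the filter of at least 10 reads in each library, and together they took 2.03% of assigned reads in replicate 1 (95% Clopper-Pearson interval 2.02 to 2.05) and 1.75% (1.74 to 1.76) in replicate 2. These intervals, like all those below, cover counting error only. Scaled with TMM factors to CPM (a gene's reads per 1000000 reads assigned to miRNA genes), the sum came to 20217 CPM in replicate 1 against 17548 CPM in replicate 2 (18883 ± 1887 CPM, SD, n = 2). Levels ranged from 8975 CPM for Mir127 to 0 for Mir432. The genes opposite the Rtl1 coding exon supplied 87.0% (86.8 to 87.3) of the summed reads in replicate 1 and 86.6% (86.4 to 86.8) in replicate 2, intervals that overlap.

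Mir127 (ENSMUSG00000070076), whose product is the best known of the miRNAs directed against Rtl1, had 29409 reads in replicate 1 and 51800 in replicate 2, or 9826 and 8123 CPM. Its mean of 8975 ± 1204 CPM (SD, n = 2) placed it 27th among all counted genes. It made up 48.6% (48.2 to 49.0) of the reads of the 10 genes in replicate 1 and 46.3% (46.0 to 46.6) in replicate 2. Its share was therefore higher in replicate 1, by more than counting error.

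Mir431 (ENSMUSG00000070080), known from skeletal muscle regeneration, followed with 15917 and 29939 reads, or 5318 and 4695 CPM (5007 ± 441 CPM, SD, n = 2; rank 44). With Mir127 it accounted for 74.9% (74.6 to 75.3) of the summed reads in replicate 1 and 73.0% (72.8 to 73.3) in replicate 2. Mir127 exceeded Mir431 1.79-fold by mean CPM, and the difference of 3968 CPM was larger than the SD of either gene.

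The other genes opposite Rtl1 were lower. Mir434 had 4418 and 8945 reads, or 1476 and 1403 CPM (1439 ± 52.0 CPM, SD, n = 2), 3.48-fold below Mir431. Mir433, described as a regulator of osteoblast differentiation, had 2922 and 6206 reads, or 976 and 973 CPM (975 ± 2.22 CPM, SD, n = 2). The replicate levels of Mir433 were the closest of the 9 detected genes.

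Mir432 (ENSMUSG00000087855) had 0 reads on either strand in both libraries. The upper limit that a count of 0 allows is 3 reads, a level of 1.00 CPM in the first pool and 0.470 CPM in the second. Its hairpin begins 356 bases after the end of Mir434, which had 1439 CPM. By the folding energy that RNAfold computed, the Mir432 hairpin was the least stable of the 10, at -23.7 kcal/mol for 75 bases, against a range of -35.1 (Mir127, 70 bases) to -49.4 kcal/mol (Mir337, 97 bases) for the others. It was also the least stable per base, at -0.316 kcal/mol against -0.361 for Mir433, the next. Whether the folding energy bears on the absence of reads was not tested.

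Between Meg3 and Rtl1 the highest level was at Mir337, in the middle of the group, with lower levels on either side. Mir673, which begins 30.99 kb from the start of Meg3 and just past its annotated end, had 445 and 775 reads, or 149 and 122 CPM (135 ± 19.2 CPM, SD, n = 2). Mir493 had 507 and 1037 reads, or 169 and 163 CPM (166 ± 4.80 CPM). These were the lowest of the 9 detected genes.

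Mir337 had 3841 and 8102 reads, or 1283 and 1270 CPM (1277 ± 9.11 CPM, SD, n = 2), the highest level outside the stretch opposite Rtl1. Its neighbour Mir540 had 1734 and 3057 reads, or 579 and 479 CPM (529 ± 70.7 CPM), and Mir665 had 1315 and 2047 reads, or 439 and 321 CPM (380 ± 83.7 CPM). Neighbouring hairpins thus differed in reads: by mean CPM Mir337 stood 2.41-fold above Mir540, although they are 194 bases apart.

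From highest to lowest mean CPM the order was Mir127, Mir431, Mir434, Mir337, Mir433, Mir540, Mir665, Mir493, Mir673 and Mir432. Each neighbouring pair in that order stood the same way in both libraries, and each difference between means was larger than the SD of either gene. The narrowest was Mir493 over Mir673, by 30.9 CPM against an SD of 19.2 CPM. The order and the folds between genes are of reads. Whether each sequence entered the libraries equally well was not tested, and the SD between libraries does not cover it. Small RNA reads cover a whole mature miRNA, so counts were not divided by length. Divided by hairpin length, the same order held except that Mir540 (7.90 CPM per base) came before Mir433 (7.86 CPM per base).

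**Figure D2:**
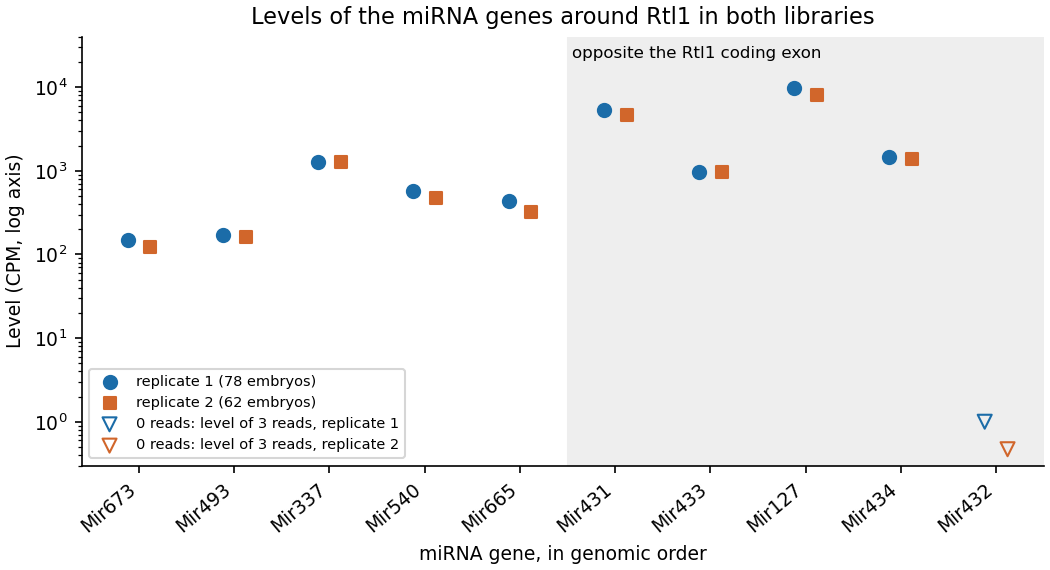
Level in CPM (log axis) of the 10 miRNA genes in genomic order, in replicate 1 (circles) and replicate 2 (squares), with the genes opposite the Rtl1 coding exon shaded. The open triangles for Mir432 mark the level of 3 reads, 1.00 and 0.470 CPM, since it had 0 reads. The replicates lie close together beside differences between genes that run from 135 CPM (Mir673) to 8975 CPM (Mir127).

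Reads on the strand opposite the genes, which is the strand of Rtl1, were rare, and as small RNA reads they are no measure of Rtl1 mRNA. They numbered 15 of 60508 in replicate 1 and 22 of 111908 in replicate 2, or 0.0248% (95% Clopper-Pearson interval 0.0139 to 0.0409) and 0.0197% (0.0123 to 0.0298). Over all miRNA genes the share was 3.30% and 3.36%, or 98232 and 215330 reads. Of those, 31550 and 70896 were at 4 minus-strand genes of the locus with more opposite-strand than own reads. The other counted plus-strand genes between Dlk1 and Dio3 had 0 opposite-strand reads in both libraries. A low share was therefore not particular to the genes around Rtl1. Among the genes around Rtl1, Mir337 supplied 14 and 22 of the opposite-strand reads. That was 0.364% (0.199 to 0.611) and 0.272% (0.170 to 0.411) of its own reads. The minus-strand gene Mir3544 is annotated within the Mir337 hairpin, and both mature miRNAs of Mir337 are complementary to it. Mir3544 is not among the counted genes, so its level was not analysed here. The remaining read was at Mir434 in replicate 1, and the other 8 genes had 0 opposite-strand reads in both libraries.

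The replicate pools were then compared to ask how far the levels vary between them. For each gene an exact binomial test (two-sided) set the reads of replicate 2 against those of replicate 1, with p-values adjusted by Benjamini-Hochberg over all 333 genes with at least 10 reads in each library, at a threshold of 0.05. With 1 library on each side the test compares these libraries and not populations. The smallest p that even a one-sided exact permutation test of 2 libraries allows is 0.5. Of the 9 tested genes, 6 were higher in replicate 1 and 0 in replicate 2, and 3 were not called. Among all 333 genes the same test called 53.5%, with 27.6% higher in replicate 1 and 25.8% higher in replicate 2. Genes with few reads are called less readily. Among the 247 genes with at least 100 reads in each library, a filter that all 9 genes pass, 66.8% were called, near the 6 of 9 here. The median log2 ratio (replicate 2 over replicate 1) of the 9 genes was -0.18, and the median size over all 333 tested genes was 0.21. The 333 include genes with few reads, whose ratios carry more counting error. Sizes were not compared among genes of like read number.

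Mir127, Mir431 and Mir434 opposite Rtl1 were higher in replicate 1. The log2 ratio was -0.27 for Mir127 (95% interval -0.30 to -0.25, exact binomial adjusted p = 6.67e-146), and 138 of the 333 genes had a larger ratio in size. For Mir431 it was -0.18 (-0.21 to -0.15, exact binomial adjusted p = 9.76e-36). For Mir434 it was -0.07 (-0.13 to -0.02, exact binomial adjusted p = 0.0114), a call that was lost with size factors from DESeq2, where the adjusted p was 0.113 (range over 6 alternatives 7.81e-06 to 0.113). Mir433 was not called (-0.00, -0.07 to 0.06, exact binomial adjusted p = 0.923).

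In the group between Meg3 and Rtl1, Mir665, Mir673 and Mir540 were higher in replicate 1. Mir665 had the largest ratio of the 9 genes, -0.45 (-0.55 to -0.35, exact binomial adjusted p = 8.58e-18), a 1.37-fold difference, with 66 of the 333 genes showing a larger one. Mir673 had -0.29 (-0.46 to -0.12, exact binomial adjusted p = 0.00186) and Mir540 -0.27 (-0.36 to -0.19, exact binomial adjusted p = 1.54e-09). Mir337 (-0.01, -0.07 to 0.04, exact binomial adjusted p = 0.718) and Mir493 (-0.06, -0.21 to 0.10, exact binomial adjusted p = 0.575) were not called. When library totals were taken without Mir203, the gene with the most reads, Mir337 was called too (adjusted p = 0.0383, range over 6 alternatives 0.0383 to 0.881). The interval of Mir337 did not overlap those of Mir540 and Mir665, the next hairpins along the strand, whose own intervals overlapped.

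All 9 ratios were below 0, against 52.6% of the 333 genes, but with DESeq2 size factors only 7 were, and Mir337 (0.01) and Mir433 (0.02) lay above 0. Summed over the 10 genes the log2 ratio was -0.20 (-0.22 to -0.19, exact binomial p = 1.17e-170, not adjusted). Without Mir127 it was -0.14 (-0.16 to -0.12), and without Mir127 and Mir431 it was -0.10 (-0.13 to -0.07). Of the difference of 2669 CPM between the summed levels, Mir127 and Mir431 made up 2327 CPM, or 87.2%.

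Tissue miRNAs moved with this difference in part. The striated muscle sum was also higher in replicate 1 (log2 ratio -0.41, with 2 of 5 tested genes called higher in replicate 1 and 0 in replicate 2), as were the epithelial sum (-0.24, 3 of 7 higher in replicate 1 and 4 in replicate 2), the cartilage sum (-0.09, 2 of 2) and the neural sum (-0.12, 2 of 9 and 0 in replicate 2). Mir206 alone supplied 23495 of 24193 muscle reads in replicate 1 and 37647 of 38887 in replicate 2. Mir203 supplied 270779 of 454320 epithelial reads in replicate 1 and 430680 of 820684 in replicate 2. The endothelial Mir126a (0.24) and the blood sum (0.13, 1 of 3 higher in replicate 1 and 2 in replicate 2) were higher in replicate 2. The part of tissue make-up in the ratios of the genes around Rtl1 was not tested.

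**Figure D3:**
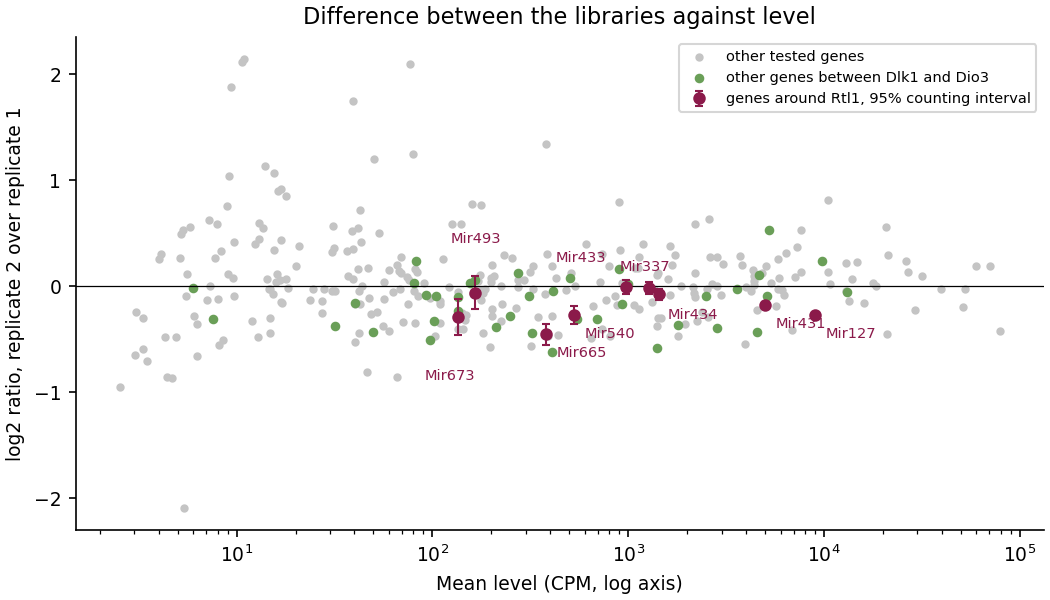
Log2 ratio of replicate 2 over replicate 1 against mean level in CPM (log axis) for the 333 tested genes, with the other genes between Dlk1 and Dio3 in green. The 9 detected genes around Rtl1 carry 95% intervals for counting error and lie between -0.45 (Mir665) and -0.00 (Mir433), inside the range of the other genes.

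The genes around Rtl1 were set beside the rest of the locus. Between Dlk1 and Dio3, 59 miRNA genes were counted, and the 10 genes took 24.2% (95% Clopper-Pearson interval 24.1 to 24.4) of their reads in replicate 1 and 22.0% (21.9 to 22.1) in replicate 2. The intervals do not overlap, so the share was higher in replicate 1 beyond counting error. The distal cluster, 33 counted genes from Mir379 to Mir3072, took 63.4% and 64.1%. Other counted genes took 10.4% and 12.2%, most of it at Gm24321, Gm25252 and Gm25750. These minus-strand genes lie within the span of the distal cluster, and all their reads were on the opposite strand, that of Mir379. The share of the distal cluster leaves them out. Counted on the strand of each gene, the share of the genes around Rtl1 was 27.7% and 25.6%. That count drops 31550 and 70896 reads on the opposite strand of 4 minus-strand genes of the locus (Gm24321, Gm25252, Gm25750 and Mir299b, picked out once these counts were known).

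The distal cluster held the highest level of the locus. Mir411 had 13346 and 12868 CPM in replicates 1 and 2 and exceeded Mir127 in both, and Mir487b (8987 and 10629 CPM) was below Mir127 in replicate 1 and above it in replicate 2. Mir379 had 5296 and 4964 CPM, close to Mir431, and Mir369 had 4456 and 4811 CPM. Summed, the distal cluster had a log2 ratio of -0.05 (-0.06 to -0.04), closer to 0 than the -0.20 of the genes around Rtl1, and the intervals do not overlap. That sum leaves out Gm24321 (0.53), Gm25252 (-0.40) and Gm25750 (-0.17), which lie within the span of the cluster. Of its 30 tested genes, 14 were called with more in replicate 1 and 3 with more in replicate 2, and 13 were not called, with a median ratio of -0.10.

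The proximal neighbours outside the 10 genes were lower, at 1648 and 1401 CPM for 9 counted genes. Their summed log2 ratio was -0.23 (-0.28 to -0.18), which overlaps the -0.20 (-0.22 to -0.19) of the genes around Rtl1. A summed shift of that size was therefore not particular to the 10 genes. Gene by gene the neighbours were closer to no change, with a median ratio of -0.04 against -0.18 for the 9 tested genes around Rtl1. Of 5 tested, 2 were higher in replicate 1, 0 in replicate 2 and 3 were not called. Mir341 (770 and 621 CPM) and Mir370 (420 and 408 CPM), both within the span of Rian, and the row of Mir3071 (374 and 275 CPM) led them, followed by Mir770 in Meg3 (75.5 and 89.4 CPM). Another 3 had no read in either library.

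**Figure D4:**
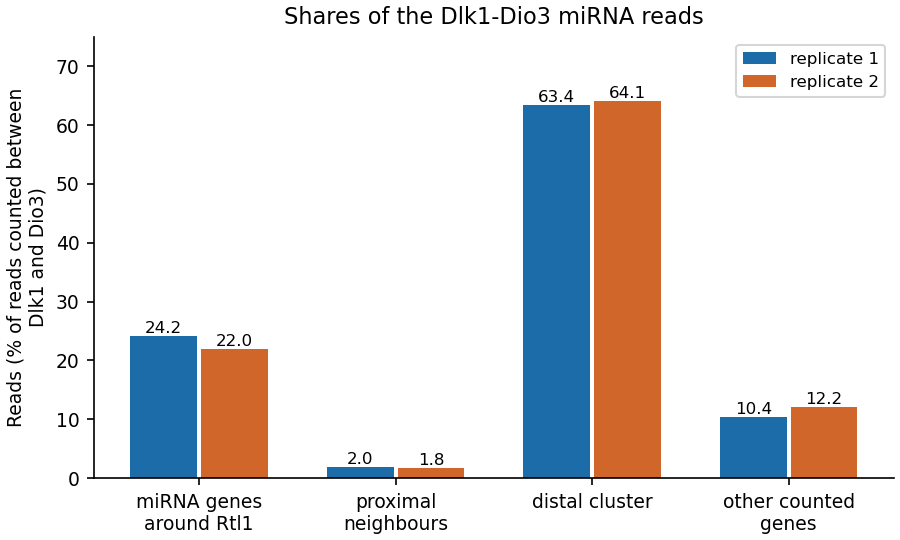
Share of the reads counted between Dlk1 and Dio3, in percent, taken by the miRNA genes around Rtl1, by their proximal neighbours, by the distal cluster and by other counted genes, with 1 bar for each replicate. The genes around Rtl1 took 24.2% and 22.0%, and the distal cluster 63.4% and 64.1%. Most reads of the other counted genes were at Gm24321, Gm25252 and Gm25750, which lie within the span of the distal cluster.

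Outside the locus, the genes closest to Mir127 in level were Mir200c, Gm25301 and Mir652, and those closest to Mir431 were Mir106b, Mir744 and Mir151, by Euclidean distance of log2 CPM over the 2 libraries. The distances ran from 0.43 to 0.44 for Mir127 and from 0.20 to 0.23 for Mir431. Only Mir106b (4909 and 4208 CPM) had a ratio of like sign and size, -0.22 against -0.18 for Mir431. With 2 libraries the distance is mostly one of level.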

How the data were processed

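Small RNA libraries from 2 pools of embryonic facial prominence were used. For each miRNA gene the deposited tables hold unnormalized counts, on mm10 with GENCODE M4 (per the deposited file list), as reads on either strand, on the gene's strand and on the opposite strand. Per the file headers, multimapping reads stand in a line of their own, outside the gene counts, which lowers counts of hairpins with copies. Aligner and counter: not given in the sources used here. Total RNA was profiled and the labels state a size range below 30, without a unit.

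Names and positions came from GENCODE M21 (GRCm38, equal to mm10) by identifier without version. The version of Mir337, Mir540 and Mir127 differed, so their counted span may differ from the printed one. Promoters were not used. Sequences are RefSeq's (GRCm38.p6). Hairpin energies were computed with RNAfold 2.7.2.

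Counts on either strand were scaled with TMM factors from edgeR 4.0.16 (R 4.3.3). SD is over 2 replicates. Genes with at least 10 reads in each library were tested by an exact binomial test with Benjamini-Hochberg adjustment over 333 genes, since a dispersion cannot be estimated from 1 library on each side. The test was checked on simulated data that held counting error only, so the check does not cover spread between pools. Reads without molecular identifiers are not independent molecules, so intervals and limits cover counting error only.

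Alternatives were total counts, DESeq2 1.42.0 size factors, totals without Mir203, the gene with the most reads, the gene-strand column, other filters and each replicate alone. The genes and lists were chosen with earlier results of these data known. Named genes were all 10 genes, the 4 highest of each neighbouring list and the 3 genes nearest in level to the 2 most abundant. Other genes were named for what the text says of them. Python 3.11.15, pandas 2.3.3, scipy 1.17.1 and matplotlib 3.10.9 were used.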

Additional observations from a re-analysis of the deposited data

How the results depend on the processing

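Under 4 other scalings or count columns and 2 other filters, 6 of the 9 tested genes were called except for 5 with DESeq2 size factors and 7 with totals that leave out Mir203, and every call was higher in replicate 1. The summed log2 ratio ran from -0.26 to -0.18. Leaving out a replicate gave summed levels from 17548 to 20217 CPM, locus shares from 22.0% to 24.2% and opposite-strand shares from 0.0197% to 0.0248%, and left no ratio to compute. Counting on the gene's strand gave a mean locus share of 26.7% against 23.1%, as opposite-strand reads of 4 minus-strand genes drop out of the total. Without Mir337 the mean opposite-strand share was 0.000882% against 0.0222%. No paired analysis was possible because there is 1 group. Below 10 reads in a library a gene was not tested, and for Mir432, which had no read, a level under that of 3 reads remained possible.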

Other observations

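The row that GENCODE M21 names Mir3071, a minus-strand gene overlapping the plus-strand Mir136, had 1119 reads in replicate 1 and 1755 in replicate 2 (log2 ratio -0.44, 95% interval for counting error -0.55 to -0.33). On the strand assigned to that row lay 1119 and 1751 of them. Its identifier carries another version in the count tables than in M21, so the strand that was counted, and with it whether the reads are of Mir3071 or Mir136, was not determined here. Mir136 has no row of its own among the counted genes. It is a plus-strand neighbour of Mir432. In M21 the row spans 109595318 to 109595397, within the Rtl1 coding part, but it was left out of the sums of the 10 genes.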
